A study of Hypomesus transpacificus with 70 samples.

Results

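The gill transcriptome of delta smelt (Hypomesus transpacificus) lowered to nearly fresh water was followed over time. The 12 fish described here were all those whose sample labels give the lowest salinity, of 70 fish in the series, with 4 fish at each of 3 exposure times. The labels write that salinity as 0 ppt and count 6, 24 and 48 h from the start of the salinity change, whereas the methods of the study give 0.4 ppt and count 0, 18 and 42 h from the end of a 6 h ramp, and the values of the methods are used below. All fish were prespawning adults from a refuge hatchery population, acclimated to 2.3 ppt for at least a fortnight. They were moved into small flow-through containers the evening before the experiment. The fish at 0.4 ppt then had the salinity lowered over the ramp and held. The handling control, 6 fish at each exposure time, was kept in the same kind of container at 2.3 ppt, and 5 further fish were taken before the experiment. The labels of the handling-control and pre-experiment fish carry a letter, A, B or C, whose meaning they do not give, and the letter was not used in the fits. The remaining 35 fish had been raised to 6, 12 or 18 ppt. Each array was hybridized with Cy3-labeled RNA of whole gill from 1 fish, and every fish was sampled once. Fish were held in groups in containers that were each sampled at a single time. The study describes additional replicate containers for the handling controls only. The 4 fish of a time at 0.4 ppt may therefore all have shared 1 container, and the labels do not tie them to containers. Container and exposure time cannot be told apart there, and the SE and p-values below treat fish as the replicates. The hour of the day also cannot be told apart from exposure time between 0 h and the later samples, while 18 and 42 h lie a day apart. In whole gill, fewer cells of a type and less RNA per cell cannot be told apart.

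The fish gill is both the respiratory surface and the main site of ion exchange with the water. In fresh water a fish gains water and loses salts, and gill ionocytes, driven by Na+/K+-ATPase, take ions up, whereas in sea water they secrete salt, with the Na-K-2Cl cotransporter as one of the carriers. The gill is also an immune tissue exposed to water-borne microbes.

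The processed signal of an array is a background-subtracted fluorescence intensity. Its median ranged from 33.5 to 99.9 over the 12 arrays, and the share of probes well above background from 73.3% to 89.4%. Fish 3 and 4 at 0 h had the lowest shares, 75.1% and 73.3%, and fish 7 at 18 h had the lowest median signal. The 12 arrays lay on 9 slides, 10 of them had 1 scan day and 2 the other, and 8 were scanned at the lower of 2 photomultiplier settings. Values below are log2 of the quantile-normalized signal. Names came from the study's own table of salinity-responsive probes, which covered 376 genes with a probe above the signal filter. The study chose those genes on the same fish, so that they are not an independent sample of the transcriptome. On the principal components of the 12 arrays, the second component (21.5% of the variance) placed all 42 h fish below all 0 h fish, from -43.8 to -30.3 at 42 h against 19.6 to 57.4 at 0 h. The 18 h fish spread from -17.3 to 23.4 on it. The first component (33% of the variance) did not follow exposure time and set fish 7 at 18 h apart at 89.5, the next fish being at 49.4.

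**Figure D1:**
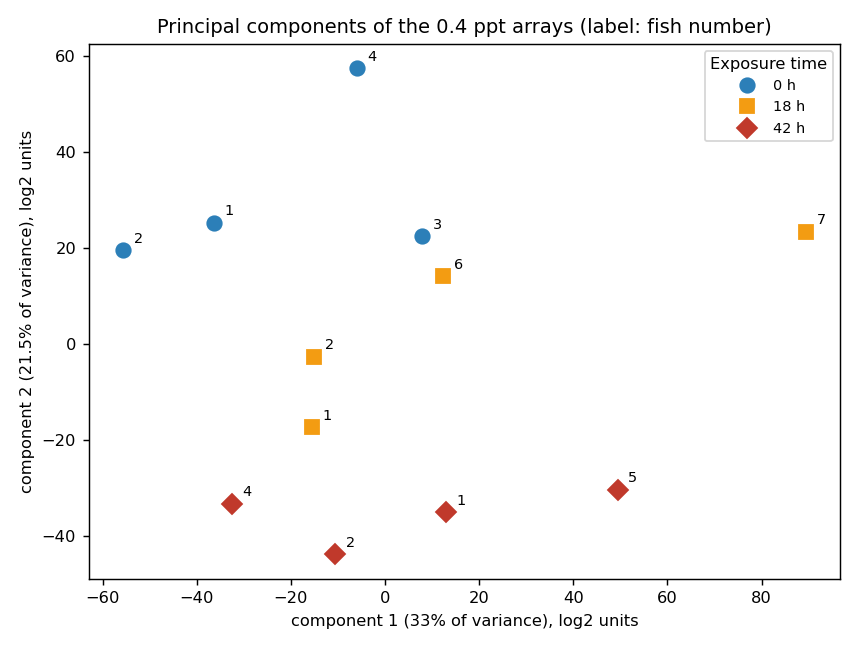
Principal components of the 12 arrays at 0.4 ppt, with component 1 on the horizontal and component 2 on the vertical axis (log2 units). Each point is 1 fish, labeled with its number. The 42 h fish lie between -43.8 and -30.3 on component 2 and the 0 h fish between 19.6 and 57.4, and fish 7 at 18 h lies apart on component 1.

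The first comparison asked which transcripts differed at the end of the time course. At 42 h compared with 0 h, 807 of 14223 genes and single probes passed an adjusted p of 0.05 (5.67%), of which 472 were higher (3.32%) and 335 lower (2.36%) at 42 h. Among the 376 named genes 109 passed, 82 of them higher and 27 lower, and the remaining 698 calls were probes without a name here. The median log2 difference was 0.36 over the named genes and -0.01 over all features. The 42 h and 0 h fish did not overlap for 107 named genes that were higher and 37 that were lower at 42 h, where 9.78% and 9.25% of all features were separated in those directions. The count of calls depended on single fish. It was 280 without fish 4 at 0 h, 416, 441 and 445 without fish 2, 5 and 1 at 42 h, and 477 and 507 without fish 2 and 1 at 0 h. With fish 3 and 4 of 0 h both left out, 348 passed. Of the genes below, interleukin-8, nat10, noxa1, IL17RA, hspa5, vcp and psmd3 each lost the call in 6 of 8 fits leaving out 1 fish. FRRS1 lost it in 7 of 8, and asb16, htra4, atp2a2a, pprc1, ftr22, ppp1r3cb, acsbg2 and BX950862.1 in 5 of 8. The call was lost in 4 of 8 for lonp1 and nasp, in 3 for sars and tomm40 and in 2 for tgm8 and hspd1. It was lost in 1 of 8 for asns, the rhamnose-binding lectin, cdc42ep3, hsp90b1, ube2na and sdhdb. Others, irg1l among them, kept it in all 8.

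The probes for the strongest changes with a pair of kept probes are shown first, so that the probes of a pair can be compared. Sequences are as listed by the study for the array's 60-base probes, 5′ to 3′, and capitals mark the bases that the pair of probes of one gene share. Among the genes that rose, the probes were
zgc:174917 probe a: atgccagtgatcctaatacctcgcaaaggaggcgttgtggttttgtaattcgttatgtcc
zgc:174917 probe b: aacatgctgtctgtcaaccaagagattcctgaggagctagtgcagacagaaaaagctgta
wu:fj08f03 probe a: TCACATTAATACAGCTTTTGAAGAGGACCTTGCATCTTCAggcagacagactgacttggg
wu:fj08f03 probe b: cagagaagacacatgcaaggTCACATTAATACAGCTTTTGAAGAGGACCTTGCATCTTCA
interleukin-8 probe a: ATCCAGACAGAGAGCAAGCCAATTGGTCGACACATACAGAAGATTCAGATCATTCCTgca
interleukin-8 probe b: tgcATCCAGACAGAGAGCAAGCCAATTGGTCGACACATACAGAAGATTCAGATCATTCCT
and among those that fell they were
CU915778.1 probe a: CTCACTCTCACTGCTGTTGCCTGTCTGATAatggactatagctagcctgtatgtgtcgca
CU915778.1 probe b: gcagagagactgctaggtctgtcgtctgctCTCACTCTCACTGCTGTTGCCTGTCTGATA
slc17a9a probe a: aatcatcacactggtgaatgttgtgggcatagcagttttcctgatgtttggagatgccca
slc17a9a probe b: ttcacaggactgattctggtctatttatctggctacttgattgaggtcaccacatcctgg
zgc:110712 probe a: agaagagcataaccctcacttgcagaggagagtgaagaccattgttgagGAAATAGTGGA
zgc:110712 probe b: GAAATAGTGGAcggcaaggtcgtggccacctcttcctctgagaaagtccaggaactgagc

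The 2 probes of interleukin-8 shared 57 of 60 bases and are close to 1 measurement, whereas those of zgc:174917 and slc17a9a shared no end of 8 bases or more. The log2 differences between 42 h and 0 h were 2.76 and 2.79 for the pair of zgc:174917, and 2.41 and 2.63 for that of wu:fj08f03. They were -4.44 and -4.37 for CU915778.1, -3.15 and -3.22 for slc17a9a, and -2.45 and -2.14 for zgc:110712. The pairs of wu:fj08f03 and CU915778.1 shared 40 and 30 bases. Within each pair the probes differed by less than the SE of either, but that SE measures the spread between fish. Both probes of a pair were read on the same fish and share that spread. Their closeness is therefore no independent evidence of the change.

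The largest increase among the named genes was that of irg1l, a gene named for its likeness to irg1, whose product in mammals makes itaconate. Its log2 signals were 5.36, 5.54, 7.66 and 5.45 in the 0 h fish, 8.78, 9.24, 11.05 and 10.98 in the 18 h fish, and 11.23, 11.04, 10.58 and 11.95 in the 42 h fish. All 42 h fish lay above all 0 h fish, and fish 3 was the high one at 0 h. The difference between 42 h and 0 h was 5.20 ± 0.98 (SE, n = 4 fish a group), a 36.8-fold increase at an adjusted p of 0.000743 in limma. One of its 2 probes passed the filter.

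A transcript named in the study's table as a probable alpha-ketoglutarate-dependent dioxygenase, zgc:174917, had log2 signals of 8.02, 8.33, 8.30 and 7.18 at 0 h, 9.36, 9.91, 11.04 and 10.65 at 18 h, and 10.62, 10.77, 10.40 and 11.13 at 42 h. The 18 h and 42 h fish all lay above the 0 h fish, and the difference of 42 h from 0 h was 2.77 ± 0.56 (adjusted p = 0.00142). The uncharacterized wu:fj08f03 rose by 2.52 ± 0.56 (adjusted p = 0.00376). Asparagine synthetase, asns, which makes asparagine from aspartate, rose by 2.38 ± 0.55 (adjusted p = 0.00507). Its 4 fish at 42 h, from 8.91 to 9.63, lay above those at 0 h, from 5.43 to 8.11.

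Interleukin-8, a chemokine that recruits neutrophils, had log2 signals of 10.75, 10.62, 9.38 and 9.69 at 42 h, against 7.54, 7.13, 9.55 and 6.29 at 0 h. The groups overlapped through fish 3 at 0 h, and the increase of 2.48 ± 0.78 passed narrowly (adjusted p = 0.0446). A transglutaminase, tgm8, which crosslinks proteins, rose by 2.11 ± 0.56. A rhamnose-binding lectin, of a family of fish lectins that bind microbial sugars, stood at 8.22, 8.32, 8.44 and 8.26 at 42 h, against 6.25, 6.75, 6.68 and 5.85 at 0 h. Its 42 h fish differed among themselves by less than the 0 h fish, and it rose by 1.93 ± 0.51 (adjusted p = 0.015). FRRS1, a putative ferric reductase, rose by 1.87 ± 0.58, and asb16, with an ankyrin repeat and a SOCS box, by 1.82 ± 0.52, although its groups overlapped. The nucleolar protein gene wdr36, which acts in the processing of small-subunit ribosomal RNA, rose by 1.80 ± 0.31 (adjusted p = 0.000272), with 8.16 to 8.58 in the 42 h fish against 6.28 to 6.76 in the 0 h fish.

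The largest decrease among the named genes was that of CU915778.1, listed as similar to protein G7c. Its log2 signals were 9.49, 9.96, 9.61 and 10.11 at 0 h, 8.19, 8.21, 8.23 and 7.18 at 18 h, and 4.68, 4.69, 6.14 and 6.02 at 42 h. The 3 exposure times did not overlap, and by 42 h the signal was 21.2-fold lower than at 0 h, a log2 difference of -4.41 ± 0.66 (adjusted p = 4.78e-05). The transporter gene slc17a9a, of the family that carries nucleotides into vesicles and listed in the study's table as member 9b, had 7.96, 7.90, 7.48 and 8.12 at 0 h, 5.84, 5.42, 6.99 and 6.11 at 18 h, and 4.12, 3.73, 5.45 and 5.42 at 42 h. It fell by 3.19 ± 0.49 (adjusted p = 5.69e-05), with all later fish below the 0 h fish.

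Other decreases at 42 h included the uncharacterized zgc:110712, which fell by 2.3 ± 0.41, and RABGAP1L, a GTPase-activating protein that switches Rab proteins of vesicle traffic off, which fell by 2.18 ± 0.50. CR626941.1, of the IMAP family of GTPases that in mammals act in lymphocytes, fell by 2.16 ± 0.35 (adjusted p = 0.000139), with 6.80, 7.92, 7.84 and 7.58 at 42 h against 9.71, 9.97, 9.25 and 9.87 at 0 h. The drug-efflux transporter gene abcb5 fell by 1.84 ± 0.43 and masp1, a serine protease of the lectin pathway of complement, by 1.76 ± 0.33. The serine protease gene htra4 fell by 1.71 ± 0.49, and AIFM2, an oxidoreductase that in mammals protects membrane lipids, by 1.60 ± 0.32. The 42 h fish lay below all 0 h fish for each of the 10 genes with the largest decreases, of which cyp1a is described with the 18 h fish. None of the spots of the named genes on these arrays was saturated or failed to stand well above background. The sizes of changes that run to low signals nevertheless depended on the processing and the arrays used. Across 18 alternatives the difference ranged from -5.14 to -3.05 for CU915778.1 and from -3.72 to -1.58 for slc17a9a. It ranged from -2.41 to -1.07 for cyp1a and from 4.09 to 5.75 for irg1l, so that their fold sizes are not firm.

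**Figure D2:**
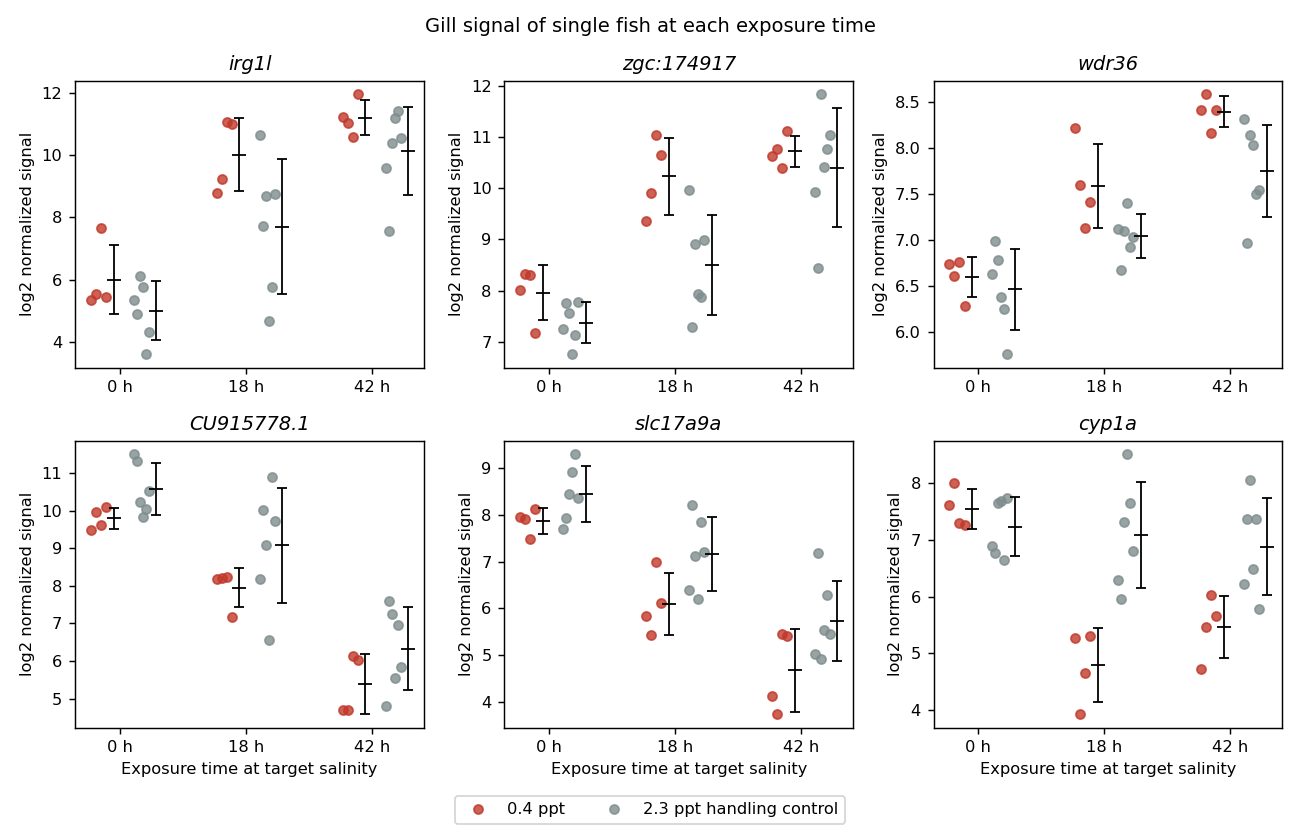
Log2 normalized signal (vertical axis) of single fish at 0, 18 and 42 h (horizontal axis) at 0.4 ppt (red, 4 fish a time) and in the 2.3 ppt handling control (gray, 6 fish a time) for 6 genes. Black bars are the mean and SD of each group, and irg1l at 42 h ranges from 10.58 to 11.95 at 0.4 ppt and from 7.56 to 11.42 at 2.3 ppt.

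The lists below were drawn from the study's table, of whose 376 genes 21.8% rose and 7.18% fell, beside 3.32% and 2.36% of all features. They were chosen with earlier results of these data known, so that a high share in a list is no independent evidence about its function. Of 22 ribosome biogenesis genes with a probe above the filter, 15 rose (68.2%) and none fell. Their median log2 difference was 1.1, against 0.36 for the study's table and -0.01 for all features. Besides wdr36, the rise was 1.5 ± 0.29 for wdr12, which acts in maturation of the large ribosomal subunit, and 1.42 ± 0.42 for nat10, an RNA acetyltransferase. The nucleolar genes imp4, bop1, noc2l and nop58 were also among the 15, as was pprc1 (1.44 ± 0.39), which is known as a transcriptional coactivator of mitochondrial biogenesis and is listed in the study's table as a hypothetical protein. The log2 signals of wdr12 were 9.52, 9.72, 9.11 and 9.52 at 42 h, against 8.05, 7.63, 8.69 and 7.50 at 0 h, and the groups did not overlap. The count was 7 without fish 4 at 0 h and 20 without fish 3 at 0 h, and 16 without both.

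Of 9 genes that charge or modify transfer RNA 7 rose (77.8%) and none fell, with a median difference of 1.18. The glutaminyl, seryl and threonyl synthetase genes rose by 1.57 ± 0.29 (qars), 1.5 ± 0.42 (sars) and 1.36 ± 0.26 (tars), and the transfer RNA methyltransferase gene trmt5 by 1.21 ± 0.28. Values of tars were 10.65, 10.79, 10.58 and 10.70 at 42 h, against 9.22, 9.21, 9.74 and 9.11 at 0 h, so that the lowest 42 h fish lay above the highest 0 h fish. The mitochondrial cars2 (0.02) and trmt13 (-0.22) did not pass. The count was 4 without fish 4 at 0 h and 5 without fish 3 and 4.

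Of 14 genes for folding and export from the endoplasmic reticulum 6 rose (42.9%), none fell and 8 did not pass, with a median difference of 0.89. The chaperone genes hyou1, hsp90b1 and hspa5 rose by 1.45 ± 0.33, 1.24 ± 0.29 and 0.95 ± 0.27, the receptor for the signal recognition particle, srpr, by 0.91 ± 0.20, and the disulfide isomerase A6 by 0.87 ± 0.19. Values of hspa5, which encodes the chaperone BiP, were 10.07, 10.13, 10.60 and 10.18 at 0 h, 11.15, 11.47, 11.67 and 11.63 at 18 h, and 11.31, 11.18, 11.13 and 11.15 at 42 h. Both later groups lay above the 0 h group. The count was 3 without fish 4 at 0 h and 3 without fish 3 and 4, and 2 at the more numerous photomultiplier setting alone.

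Of 11 proteasome and ubiquitin genes 4 rose (36.4%), namely the deubiquitinase gene usp14 (0.92 ± 0.22), the conjugating enzyme gene ube2na (0.88 ± 0.21), the segregase gene vcp (0.85 ± 0.26) and the lid subunit gene psmd3 (0.84 ± 0.26). The median difference of the list was 0.75. Of 14 mitochondrial genes 5 rose (35.7%), with a median difference of 0.47 over the list, led by hspd1, the matrix chaperonin (1.68 ± 0.44), tomm40, the channel of protein import (1.48 ± 0.41), sdhdb (1.05 ± 0.26) and lonp1, the matrix protease (1.05 ± 0.27). No gene of either list fell. Without fish 4 at 0 h, 1 and 0 members of these lists passed, and with fish 3 and 4 left out 2 of each did.

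Of 19 inflammatory mediators and regulators of NF-kB, 4 rose (21.1%) and none fell, a share close to the 21.8% of the study's table. Those that rose were irg1l, interleukin-8, noxa1 (0.94 ± 0.29), which the study's table names as similar to a neutrophil oxidase factor, and the interleukin-17 receptor gene IL17RA (0.90 ± 0.27). The median difference was 0.77. The cytokine gene il1b had a difference of 1.72 (adjusted p = 0.254) and the chemokine CCL4 one of 1.12 (adjusted p = 0.106), while CU693369.1 had the lowest value of the list, -2.09. With fish 1 at 42 h left out, 1 of the 19 passed, and with fish 3 and 4 of 0 h left out, 2 did. None of 7 cytokine receptor and JAK-STAT genes passed, and their median difference was 0.17. Of 8 antiviral genes 1 fell (12.5%) and none rose, with a median difference of -0.27. The gene that fell was ftr22, a virus-induced TRIM protein gene of fishes, by 1.03 ± 0.29 (adjusted p = 0.0236).

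Of 16 ion and water transport genes 1 rose (6.25%), atp2a2a, which encodes a calcium pump of the endoplasmic reticulum (1.33 ± 0.39, adjusted p = 0.0312), and none fell. The potassium channel gene kcnj1b had a difference of -1.11 ± 0.46 (adjusted p = 0.15) and slc12a2, the Na-K-2Cl cotransporter, one of -1.06 ± 0.52 (adjusted p = 0.246). Values of slc12a2 were 5.92, 5.92, 6.01 and 7.35 at 42 h, against 7.18, 6.72, 7.73 and 7.80 at 0 h, with fish 5 at 42 h inside the 0 h range. These values average probes that differed in size of change. The pair on the same assembled sequence gave -1.57 ± 0.69 and -1.43 ± 0.68, and the probe on another sequence gave -0.18 ± 0.29. Of the 5 ionocyte markers none passed, the Na+/K+-ATPase subunit genes atp1a1a.1, atp1a1a.4 and atp1b1b having differences of -0.33, 0.00 and -0.52 and the ammonia transporter gene rhcga one of -0.40. The summed signal of the 5 ionocyte markers ranged from 29360 to 44103 at 0 h, from 21388 to 45690 at 18 h and from 22725 to 48596 at 42 h, and no marker was at 0. Such a sum adds signals without the log, so that the strongest markers dominate it and slc12a2 hardly counts. Of the 4 leukocyte markers 3 passed the filter, with summed signals from 955 to 1694 at 0 h, from 897 to 1346 at 18 h and from 830 to 1441 at 42 h. One of them, BX950862.1, similar to a macrophage mannose receptor, fell by 0.79 ± 0.22. The other kept leukocyte markers, hcls1 and pik3r5, had differences of 0.37 and -0.005 and did not pass. The marker below the filter, gpr84, went the other way in a limma fit without the filter, by 1.13 ± 0.46 (adjusted p = 0.292). The part of either cell type in the results above was not tested.

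Of 16 genes of cell division and DNA replication 2 rose (12.5%, below the 21.8% of the study's table) and none fell. They were the helicase subunit gene mcm4 (1.14 ± 0.26) and nasp (0.93 ± 0.26). The latter is known as a histone chaperone gene and listed in the study's table as HGV2. The mitotic genes ccnb1 (0.34) and aurkb (0.53) did not pass. Of 11 genes of lipid and carbohydrate metabolism 1 rose (9.09%) and 3 fell (27.3%), beside 21.8% and 7.18% of the study's table. The gene that rose was gfpt2, for the first step of hexosamine synthesis (1.24 ± 0.30). The glycogen-targeting subunit gene ppp1r3cb fell by 1.47 ± 0.41, the sugar transporter gene slc2a8 by 0.96 ± 0.19 and the fatty acid ligase gene acsbg2 by 0.86 ± 0.26. Besides asns, cth of sulfur amino acid metabolism rose by 1.47 ± 0.29, among 5 genes of polyamine and amino acid metabolism (2 of them, 40%). Of 15 junction, adhesion and cytoskeleton genes 1 rose (6.67%), the Cdc42 effector gene cdc42ep3 (1.55 ± 0.40). Of 9 immediate early and growth arrest regulators none passed.

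**Figure D3:**
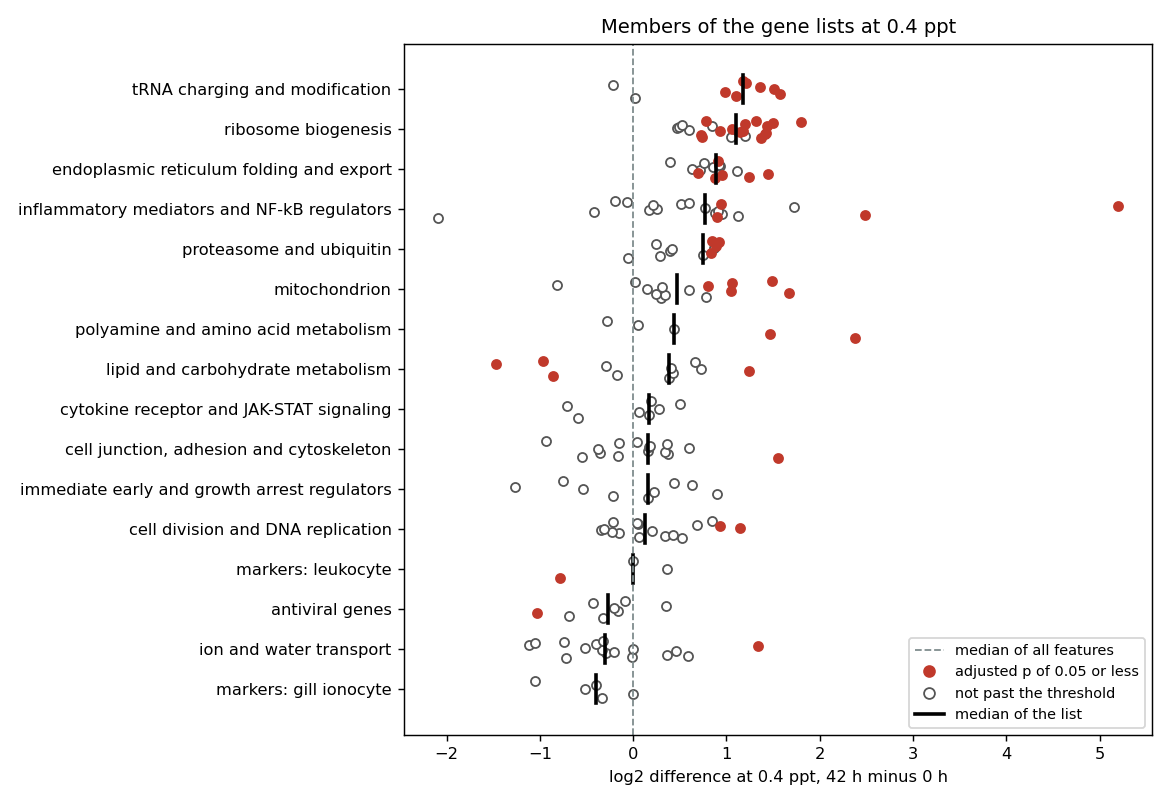
Log2 difference at 0.4 ppt between 42 h and 0 h (horizontal axis) for the members of each gene list (rows). Each point is 1 gene, red where it passed an adjusted p of 0.05, black bars are list medians and the dashed line is the median of all features, and the medians run from -0.40 for the ionocyte markers to 1.18 for transfer RNA charging and modification.

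Of the genes whose response at 0.4 ppt the study examined in its own text, 14 were matched in its table of probes, and the chemokine CCL39a, which was not matched by its symbol, is not analysed here. The study's reports compared salinity treatments with the handling controls, whereas the values here compare exposure times within 0.4 ppt. They are therefore no test of the study's findings. Of the 14, 12 passed the filter, and FRRS1 was the one called between 42 h and 0 h, at an adjusted p of 0.0445. Its call was lost in 7 of 8 fits that left out 1 fish (adjusted p from 0.0327 to 0.123) and in 8 of 18 other alternatives (up to 0.127). The differences of the remaining kept genes were 0.95 ± 0.40 for PTAFR, the receptor of platelet-activating factor (adjusted p = 0.158), 0.77 ± 0.57 for il17a/f3, 0.50 ± 0.43 for socs3b, a brake on cytokine signaling, 0.44 ± 0.52 for rgs4, 0.44 ± 0.37 for odc1 of polyamine synthesis, 0.39 ± 0.42 for acadm of fatty acid oxidation, 0.22 ± 0.23 for eya2, -0.43 ± 0.31 for thtpa and -0.50 ± 0.28 for the Wnt receptor gene fzd9a, beside kcnj1b and slc12a2 above. The PTAFR fish did not overlap, with 7.47 to 8.14 at 42 h against 6.55 to 7.16 at 0 h. In a fit without the signal filter, gadd45ab differed by 0.39 ± 0.31 and sord, which oxidizes sorbitol, by -0.90 ± 0.21 (adjusted p = 0.0203). The study chose these genes on the same fish, so that their values are no independent evidence.

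The comparison of 18 h with 0 h used the same 0 h fish as the one at 42 h, and its count of calls is no test between the later times, which is given below. Of 14226 features 3 passed (0.0211%), 1 higher (0.00703%) and 2 lower (0.0141%), and 1109 had an unadjusted p under 0.05. Of the named genes, cyp1a was lower and the disulfide isomerase A6 higher. The gene cyp1a encodes a cytochrome P450 that oxidizes aromatic hydrocarbons and is induced through the aryl hydrocarbon receptor. Its log2 signals were 7.61, 8.01, 7.29 and 7.27 at 0 h, 5.27, 3.92, 4.65 and 5.31 at 18 h, and 4.72, 5.46, 6.02 and 5.67 at 42 h. Every fish at 18 and 42 h lay below every fish at 0 h. The difference from 0 h was -2.76 ± 0.48 at 18 h (adjusted p = 0.00521) and -2.08 ± 0.48 at 42 h (adjusted p = 0.0052). The disulfide isomerase rose by 0.96 ± 0.19 at 18 h (adjusted p = 0.0392), with 11.84, 12.28, 12.40 and 12.97 at 18 h against 11.58, 11.31, 11.31 and 11.43 at 0 h. The call of cyp1a at 18 h was lost in 10 of 23 alternatives, with an adjusted p up to 0.216, and that of the disulfide isomerase in 16 of 24. Over those 23 alternatives the 18 h difference of cyp1a ranged from -3.02 to -1.33.

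Between 42 h and 18 h no feature passed in limma (0%), while 844 of 14223 had an unadjusted p under 0.05 and an ordinary linear model also made 0 calls. The 18 h values of the lists lay between those of 0 h and 42 h for some lists and not for others. The median difference from the shared 0 h fish was 0.60 at 18 h and 1.1 at 42 h for ribosome biogenesis, 0.65 and 1.18 for transfer RNA charging, and 0.93 and 0.89 for endoplasmic reticulum folding. In the endoplasmic reticulum list hspa5 differed from 0 h by 1.23 at 18 h (adjusted p = 0.079) and hsp90b1 by 1.28 (adjusted p = 0.0809).

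The handling control asked how much of the time course was also seen without a change in salinity. At 2.3 ppt, 1330 of 14225 features passed between 42 h and 0 h (9.35%), including 168 named genes. The control had 6 fish a time and 0.4 ppt had 4, so that counts and shares of calls at these salinities are not directly comparable. Between 18 h and 0 h none passed there (0%, with 848 at an unadjusted p under 0.05), and 5 passed between 42 h and 18 h (0.0351%). No feature passed the test of the difference between the change at 0.4 ppt and that at 2.3 ppt (0% of 14223), although 478 had an unadjusted p under 0.05 and the ordinary linear model also made 0 calls. All 109 genes called at 0.4 ppt had the same sign at 2.3 ppt, and 88 were called at both salinities in the same direction, which is 80.7% of the calls at 0.4 ppt and 52.4% of those at 2.3 ppt. The 2 changes came from different fish and correlated at r = 0.90 over the 376 named genes, which share the normalization and the study's selection, and at r = 0.58 over 14223 features. Genes are not independent replicates.

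In the handling control irg1l ranged from 3.60 to 6.13 at 0 h (median 5.13), from 4.68 to 10.64 at 18 h (median 8.20) and from 7.56 to 11.42 at 42 h (median 10.46). Its change was 5.20 at 0.4 ppt and 5.11 at 2.3 ppt, and the difference of these changes was 0.09, with a 95% interval from -2.44 to 2.63. The change of CU915778.1 was -4.41 at 0.4 ppt and -4.25 at 2.3 ppt, an interval of the difference from -1.86 to 1.54, and that of slc17a9a was -3.19 and -2.70. List medians at 0.4 and 2.3 ppt were 1.1 and 0.97 for ribosome biogenesis, 1.18 and 0.78 for transfer RNA charging and 0.89 and 0.83 for endoplasmic reticulum folding. Some other lists had the larger median change at 2.3 ppt. Medians were 0.77 and 1.05 for the inflammatory list and 0.17 and 0.81 for cytokine receptor and JAK-STAT genes. They were -0.27 and -0.75 for antiviral genes and 0.47 and 0.58 for mitochondrial genes. Ribosome biogenesis had 15 genes called higher at 0.4 ppt and 20 at 2.3 ppt, and the inflammatory list 4 and 12. With 4 fish a time at 0.4 ppt and 6 at 2.3 ppt, these counts do not compare the sizes of the changes. Intervals as wide as those of irg1l and CU915778.1 do not show that the changes were equal.

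The 3 named genes with the smallest p for a difference between salinities did not pass after adjustment (each adjusted p was 1.00). The first, si:dkey-77f17.1, an unnamed protein, changed by 0.23 ± 0.14 at 0.4 ppt and by 0.75 ± 0.11 at 2.3 ppt, a difference of -0.52 with a 95% interval from -0.87 to -0.16. The second was cyp1a, which changed by -2.08 ± 0.48 at 0.4 ppt and by -0.35 ± 0.39 at 2.3 ppt, a difference of -1.73 with an interval from -2.97 to -0.49. In the handling control cyp1a ranged from 6.64 to 7.74 at 0 h, from 5.96 to 8.51 at 18 h and from 5.78 to 8.06 at 42 h, so that all 3 times overlapped there. At 0.4 ppt its 18 h and 42 h fish overlapped each other and lay below the 0 h fish. At 18 h the change of cyp1a differed between 0.4 and 2.3 ppt by -2.62, with an interval from -3.86 to -1.38, and it did not pass after adjustment either. No feature passed that test at 18 h in limma (0% of 14224), 308 having an unadjusted p under 0.05 and the ordinary linear model making 0 calls. These intervals are not adjusted for the number of features, and the genes were picked for their small p. The third, similar to tyrosinase, changed by 0.95 ± 0.41 and -0.48 ± 0.37, a difference of 1.43 with an interval from 0.32 to 2.54.

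**Figure D4:**
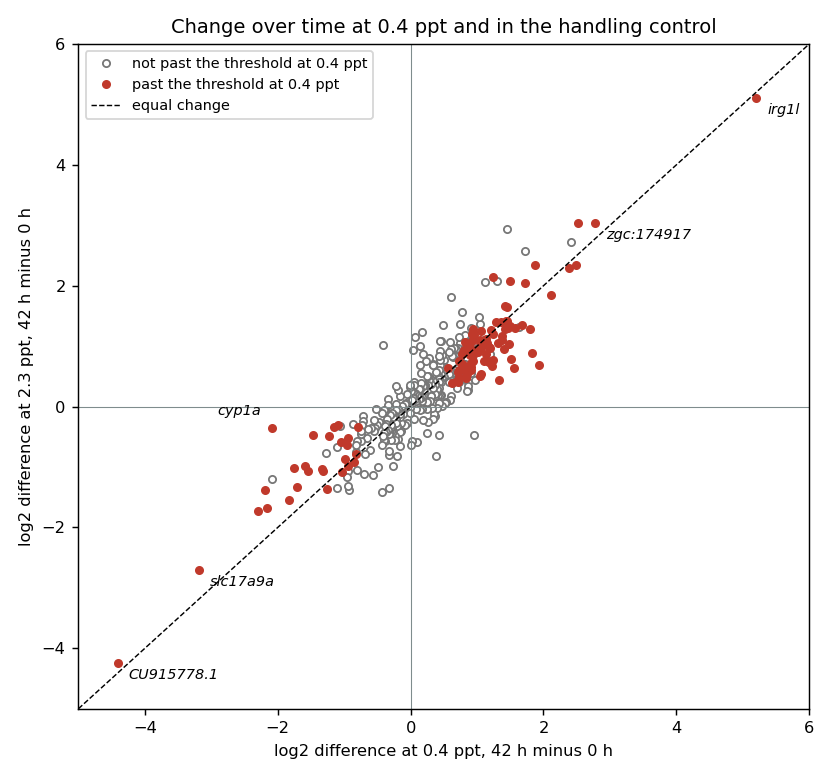
Log2 difference between 42 h and 0 h at 0.4 ppt (horizontal axis) and in the 2.3 ppt handling control (vertical axis) for the 376 named genes, red where the gene passed an adjusted p of 0.05 at 0.4 ppt. The dashed line marks equal change, near which irg1l (5.20 and 5.11) lies, while cyp1a lies off it (-2.08 and -0.35).

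Against the mean change at 2.3, 6, 12 and 18 ppt no feature passed either (0% of 14221), with 1199 at an unadjusted p under 0.05 and 0 calls by the ordinary linear model. Between 42 h and 0 h, 3119 features passed at 6 ppt (21.9%), 3671 at 12 ppt (25.8%) and 154 at 18 ppt (1.08%), beside 807 at 0.4 ppt. The change of irg1l between 42 h and 0 h was 4.87 at 6 ppt, 0.69 at 12 ppt and 4.26 at 18 ppt, beside 5.20 at 0.4 ppt. That of cyp1a was -0.43 at 6 ppt, -0.37 at 12 ppt and -1.07 at 18 ppt, beside -2.08 at 0.4 ppt. Before the experiment the 5 fish had irg1l signals from 1.70 to 3.70 and cyp1a signals from 6.82 to 9.36. Without the log, those irg1l signals lay far below the filter value of 100, and whether they stood above background was not checked. The lowest, 1.70, came from fish A1, whose array had the lowest median signal of the series (12.9). The 0 h fish at 0.4 ppt lay above that range for irg1l, from 5.36 to 7.66, and inside it for cyp1a, from 7.27 to 8.01.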

How the data were processed

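Gill RNA of 70 fish was hybridized to 70 single-color Agilent arrays. Per the file headers the authors extracted intensity values with Feature Extraction, background-subtracted and not normalized between arrays. The authors also deposited log2 values (quantile normalized, then centered per probe), used as an alternative. Salinity and time came from the labels. Members and gene lists were chosen with earlier results of these data known.

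Of 36818 probes, the 14425 that reached a signal of 100 in 50% of arrays or more entered the fits, and 2036 outlier spots were left out. Signals were quantile normalized and log2 transformed, and the kept probes of a gene in the study's table of salinity-responsive probes were averaged within each fish, giving 376 genes among 14226 features. limma 3.58.1 in R 4.3.3 fitted 16 group means on all arrays with moderated two-sided tests (prior degrees of freedom 3.35), with Benjamini-Hochberg adjustment across every feature and a threshold of 0.05. P-values measure the spread between fish of shared containers. Named genes were the 10 largest changes each way at 42 h past the threshold, 5 each way at the other times, the 3 smallest p against 2.3 ppt, the genes that the study examined at 0.4 ppt and up to 4 called members of each list. When tested on 13550 simulated features for 42 h against 0 h, 44.5% of 200 changes of 1 log2 unit and 84.5% of 200 changes of 2 units were called, and 15 of 273 calls were false. The simulated noise was independent between fish and between features, without shared containers. These shares are therefore not error rates of the calls in the real fish. The number of fish limits the precision. Alternatives were other background corrections, scalings, filters, tests, feature definitions and sample sets, blocks for slide, scan day, photomultiplier setting and replicate number, array brightness, and leaving out each fish. The normexp alternative used the median signal in place of the planned mean signal, which the files used here do not hold.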

Additional observations from a re-analysis of the deposited data

Results flagged for a closer look

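In groups of 4 fish, 1 fish lay far from the other 3 in 14 of 198 sets of values of named genes, where chance flags about 1 in 20. Fish 3 at 0 h was high for irg1l (7.66, the others up to 5.54), noxa1 (10.6), usp14 (8.72) and lonp1 (8.44), and fish 4 at 0 h was low for fzd9a (8.95). At 18 h, fish 7 was low for CU915778.1 (7.18) and high for hyou1 (9.4), fish 1 was high for FRRS1 (11.6) and fish 6 for PTAFR (7.3). At 42 h, fish 1 was high for FRRS1 (12.2), fish 5 was high for slc12a2 (7.35), fish 2 was low for asb16 (7.41) and cdc42ep3 (7.46), and fish 4 was low for atp2a2a (6.33).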

How the results depend on the processing

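The 53 named genes called between 42 h and 0 h kept their direction in all 1389 alternative values and their call in 1103 of them. The call was never lost for 18 of these genes. Of the 13 named genes not called, acadm turned to -0.031 with slide as a fixed block and eya2 to -0.075 without fish 3 and 4 of 0 h, an alternative chosen after seeing the data, which gave 348 calls between 42 h and 0 h. That count, 807, was 513 with 75th percentile scaling, 391 with no filter, 79 with a signal of at least 100 on every array, 500 with probes well above background, 481 with the authors' values, 1514 with only the 2 groups compared and 385 at the more numerous photomultiplier setting. Leaving out single fish gave 280 to 973. The replicate number as a replicate block gave 832. Same-numbered fish of different times correlated from -0.30 to 0.44 in their deviations (7 pairs), and other fish from -0.51 to 0.64 (41 pairs). So few pairs cannot show whether such fish share more than a number. The 18 h count, 3, was 1 with 75th percentile scaling, a signal of at least 100 on every array, scan day as a block or the replicate block. It was 0 with no filter, probes well above background, the authors' values, only the groups compared, slide as a fixed block or the more numerous scan day alone, 5 with photomultiplier setting as a block, 6 with slide as a random block or at the more numerous photomultiplier setting, and 8 with array brightness. Leaving out single fish gave 0 to 4. Between 42 h and 18 h, 2 passed with only the groups compared, 5 with slide as a fixed block, 4 with slide as a random block and 5 on the more numerous scan day, and 0 to 1 without single fish. Against 2.3 ppt the count remained at 0 in every alternative at both times, and against the mean of the other salinities it was 0 to 3 without single fish. The causes were not tested.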
